A study of Mus musculus with 13 samples.

Results

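Replication-dependent histone genes encode the bulk of the histones that package newly made DNA. They were taken as all listed gene symbols that begin with Hist1h, Hist2h, Hist3h or Hist4h, leaving out the testis histones Hist1h1t and Hist1h2ba. This gave 56 of the 20662 symbols listed. By the symbol, 4 belong to the linker histone H1, 14 to H2A, 15 to H2B, 11 to H3 and 11 to H4. The remaining row joins Hist1h1e and Hist1h2be under 1 value and was put in no class.

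The core histones H2A, H2B, H3 and H4 form the nucleosome around which DNA is wound, and H1 binds the DNA between nucleosomes. Their genes lie in clusters, lack introns and are transcribed mainly in S phase. The messages end in a conserved stem-loop in place of a poly(A) tail, and the stem-loop-binding protein SLBP and the U7 small nuclear RNA direct the cut that makes this end. In the testis, spermatogonia divide by mitosis and copy their DNA before each division, while testis-specific histones and later protamines replace much of the somatic set as germ cells mature.

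The series holds 13 RNA samples of testicular germ cells from C57BL/6 mice at postnatal week 8. Values were analysed for the 2 spermatogonial samples, titled KIT_AGSC and THY1_AGSC, and the other 11 samples (5 of spermatocytes, 5 of spermatids and 1 of mature sperm) were not analysed here. No genetic change or treatment is given for either group, and how the cells were isolated or pooled is not given in the sources used here. KIT is the stem cell factor receptor of differentiating spermatogonia, and THY1 is an antigen used to enrich undifferentiated ones. Each sample is 1 library of ribosomal-RNA-depleted total RNA, so no difference below has a replicate check or a p-value. Values were taken as FPKM, a measure of fragments scaled by transcript length and library size, which makes levels of different genes comparable per length.

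The table of the sample titled KIT is itself named for Thy and has a value column headed Thy1. The other is named for Kit and has a column headed Kit. Kit was listed at 0 FPKM in the KIT-labelled library and at 36.7 FPKM in the THY1-labelled library. Thy1 was at 78.8 and 0.723 FPKM in the same order, so both antigens went against the sample titles. The titles are followed here, and every direction turns if they are exchanged. Depth was judged from the product of FPKM and transcript length, whose percentile 5 over single-transcript genes was taken as the worth of 1 fragment. It was 6.41 times larger in the KIT-labelled library, which is therefore the shallower one. At the members' median annotated length of 487 bases, 1 fragment was worth about 5.62 FPKM in the KIT-labelled library and 0.876 FPKM in the THY1-labelled library. In a bulk sample, fewer cells of a type and less RNA per cell cannot be told apart.

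The promoters below are those of members whose levels are described later, 1 or 2 from each class but H3, to show what the 5′ ends of histone genes share. They are the 150 bases before the RefSeq transcription start (GRCm38.p6), 5′ to 3′ on the gene's strand, with matches on either strand to the CCAAT box, the TATA box motif TATAAA or the octamer ATTTGCAT in capitals. Hist2h2ab lies at chr3:96219735-96219884 (plus strand), Hist2h2ac at chr3:96220881-96221030 (minus), Hist1h2bb at chr13:23746584-23746733 (plus), Hist1h1c at chr13:23738657-23738806 (plus), Hist1h4b at chr13:23756787-23756936 (plus) and Hist4h4 at chr6:136804432-136804581 (minus).
Hist2h2ab: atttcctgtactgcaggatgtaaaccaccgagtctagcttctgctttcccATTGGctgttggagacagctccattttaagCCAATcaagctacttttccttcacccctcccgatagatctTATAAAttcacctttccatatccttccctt
Hist2h2ac: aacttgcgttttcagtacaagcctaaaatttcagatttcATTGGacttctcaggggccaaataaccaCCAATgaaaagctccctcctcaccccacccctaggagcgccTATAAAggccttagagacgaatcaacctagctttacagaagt
Hist1h2bb: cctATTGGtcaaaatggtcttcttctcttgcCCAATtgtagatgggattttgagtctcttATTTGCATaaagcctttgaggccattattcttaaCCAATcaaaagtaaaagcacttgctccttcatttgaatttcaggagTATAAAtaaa
Hist1h1c: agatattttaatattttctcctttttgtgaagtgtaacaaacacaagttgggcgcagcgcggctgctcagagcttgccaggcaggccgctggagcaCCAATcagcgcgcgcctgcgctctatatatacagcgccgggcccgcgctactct
Hist1h4b: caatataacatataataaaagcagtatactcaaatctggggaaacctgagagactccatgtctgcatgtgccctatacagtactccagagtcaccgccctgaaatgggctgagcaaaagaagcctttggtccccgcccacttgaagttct
Hist4h4: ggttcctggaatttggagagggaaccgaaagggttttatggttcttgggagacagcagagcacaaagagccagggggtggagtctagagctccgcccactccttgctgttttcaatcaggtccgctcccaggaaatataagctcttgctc

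Promoters of 49 of the 56 members were matched in the RefSeq table, each as 300 bases from 250 before to 50 after the start, and searched for the same 3 motifs on both strands. Hist1h3a, Hist1h3f, Hist2h2be, Hist2h4, Hist1h2bc, Hist3h2bb-ps and the joined row had no entry. The CCAAT box was present in all 39 matched promoters of H1, H2A, H2B and H3, but in 3 of 10 of H4, against 37.4% of all 32851 promoters in the table. TATAAA was present in 30 of the 49 (61.2%), against 13.6% of all promoters. The octamer, the site of the POU factor encoded by Pou2f1, was present in 7 of 14 H2A and 5 of 12 H2B promoters and in none of H1, H3 or H4, against 1.74% of all promoters. All 5 H2B matches lay on the gene's strand and all 7 H2A matches on the opposite strand, and in no member did matches to different motifs overlap. The matches of Hist1h2bg mirror those of Hist1h2ae in strand and spacing, and those of Hist1h2bk mirror those of Hist1h2ah. The same sites may thus be counted for both genes of a pair, so the H2A and H2B counts and strands are not all independent. A match describes the letters and is not a measured binding site. The 150 bases shown for Hist1h4b and Hist4h4 hold none of the 3.

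The 3′ stem-loop, where the processing machinery of histone messages binds, was searched for in GENCODE M21 transcripts on the transcript's strand as a stem of GGC and any base, then CTTTTCAG, then any base and GCC. It was found in 23 of the 54 members with a transcript there, against 36 of 55341 gene names in all (0.0651%). A transcript without a match says only that the letters are not in the annotated stretch. Stem-loops of 4 members are printed with 5 bases on each side in lower case, to show how the H4 form differs from that of the other classes. Their annotated transcripts run on for 840, 1643, 37 and 2445 bases after the stem-loop, in the order printed, so not all lie at the annotated end.
Hist1h1c: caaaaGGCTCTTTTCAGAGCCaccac
Hist3h2a: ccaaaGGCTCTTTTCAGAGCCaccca
Hist1h3a: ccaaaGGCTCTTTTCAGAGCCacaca
Hist4h4: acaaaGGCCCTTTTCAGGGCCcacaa

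Of the 23 members with a match, 18 had the first form, in H1, H2A, H2B and H3, and 5 had the form of Hist4h4, all of them H4 genes. The motif was found in 13 of 27 members above 0 in at least 1 library and in 10 of 27 listed at 0 in both.

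Most replication-dependent histone genes were at or near 0 in both libraries, and a few members held most of the signal. Of the 56, 27 (48.2%) were listed at exactly 0 in both, against 18.3% of all genes. Among other single-exon genes the share was 41.2% over the members' whole length range and 62.4% over those up to 1000 bases, so the members lay between these sets. Another 16 were above 0 in both, 5 in the KIT-labelled library alone and 8 in the THY1-labelled library alone. Genes that nearly every cell uses were also listed at 0, such as Ppia in both libraries, so a listed 0 may be a failed estimate. The summed histone level was 1140 FPKM in the KIT-labelled library and 112 FPKM in the THY1-labelled library. That was 0.0750% and 0.0139% of all FPKM, or 0.266% and 0.0223% without Rpph1, the noncoding RNA of RNase P that made up 71.8% and 37.9% of the sums.

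**Figure D1:**
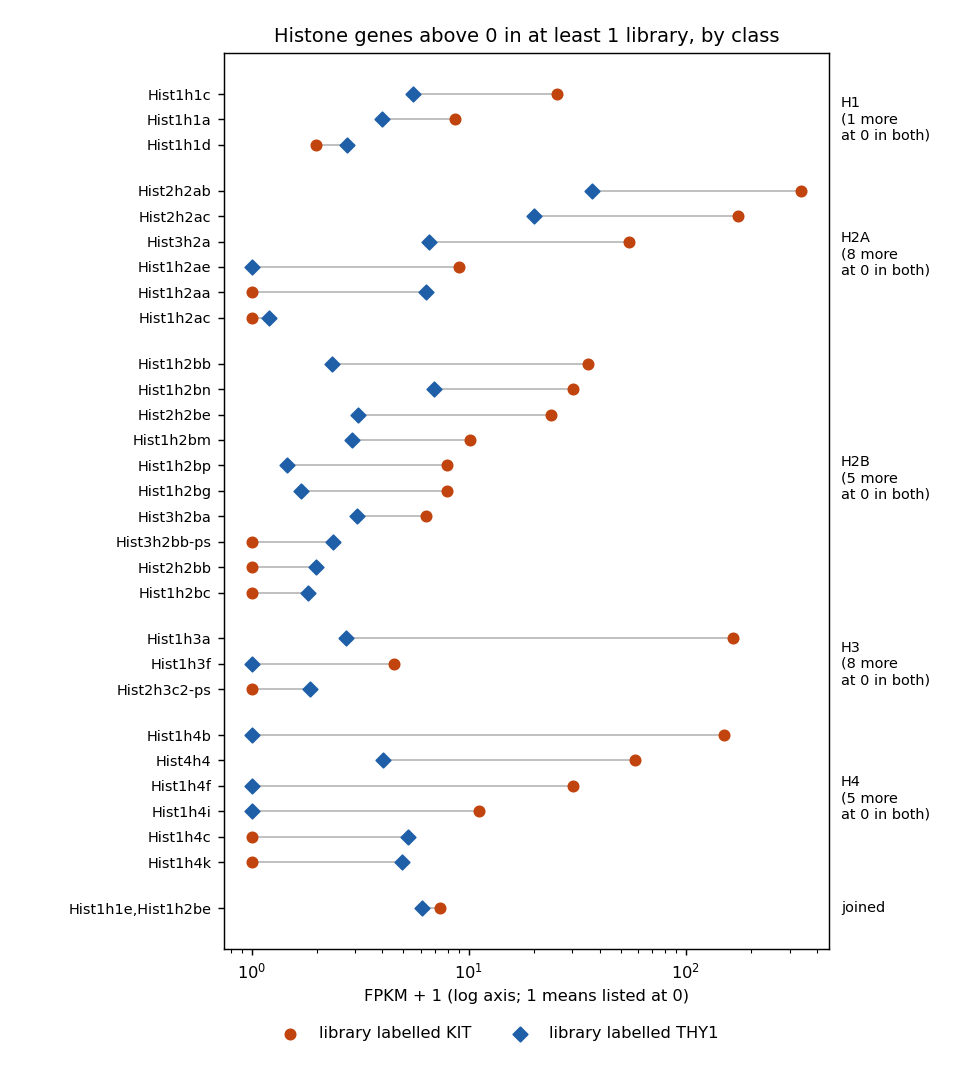
FPKM + 1 on a log axis for the 29 members above 0 in at least 1 library, as circles (KIT-labelled library) and diamonds (THY1-labelled library), grouped by class, with 1 meaning listed at 0. Hist2h2ab is the highest in both libraries, at 339 and 35.9 FPKM, and most circles lie to the right of their diamonds.

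H2A carried the largest class sum in both libraries, and 2 neighbouring genes of the Hist2 cluster on chromosome 3 held most of it. Hist2h2ab was at 339 FPKM in the KIT-labelled library and 35.9 FPKM in the THY1-labelled library, a ratio of 9.44. Hist2h2ac was at 172 and 19.0 FPKM, a ratio of 9.09. Together they made up 44.8% of the summed histone level in the KIT-labelled library and 49.1% in the THY1-labelled library. They were the best covered members in the THY1-labelled library, with values worth about 58.2 and 39.5 fragments for Hist2h2ab and 29.5 and 20.8 for Hist2h2ac, with the KIT-labelled library first.

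The remaining H2A members were lower. Hist3h2a on chromosome 11 was at 53.9 and 5.54 FPKM with the KIT-labelled library first, a ratio of 9.73. The ratios of these 3 H2A genes thus lay between 9.09 and 9.73. Hist1h2ae was at 7.97 FPKM in the KIT-labelled library and listed at 0 in the other. Hist1h2aa, the H2A that pairs with the testis H2B gene Hist1h2ba in the same stretch of the cluster, went the other way, listed at 0 in the KIT-labelled library and at 5.38 FPKM in the THY1-labelled library. Hist1h2ac was listed at 0 and at 0.203 FPKM. All 8 H2A genes listed at 0 in both libraries belong to the Hist1 cluster on chromosome 13.

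H2B had the most members above 0, at lower levels. Hist1h2bb had the highest H2B level in the KIT-labelled library, at 34.4 FPKM against 1.35 FPKM in the other, a ratio of 25.4. Hist1h2bn was at 29.2 and 5.93 FPKM, a ratio of 4.93, and Hist2h2be at 22.8 and 2.09 FPKM, a ratio of 10.9. Hist2h2be has a long annotated transcript (2667 bases in RefSeq), so its level rests on more fragments, about 22.2 and 13.1, than those of Hist1h2bb (6.16 and 1.55). This makes it the best-covered H2B gene, although its FPKM was not the highest.

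Another 4 H2B genes were above 0 in both libraries, and their values were worth fewer than 3 fragments in either. Hist1h2bm was at 9.07 and 1.91 FPKM, Hist1h2bp at 6.95 and 0.446, Hist1h2bg at 6.90 and 0.691, and Hist3h2ba at 5.32 and 2.06, with the KIT-labelled library first. All 7 genes above 0 in both were larger in the KIT-labelled library. The pseudogene Hist3h2bb-ps (1.37 FPKM), Hist2h2bb (0.969) and Hist1h2bc (0.823) were above 0 in the THY1-labelled library alone, and 5 H2B genes were listed at 0 in both.

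In the listed values, H3 was nearly a single gene. Hist1h3a was at 164 FPKM in the KIT-labelled library and 1.71 FPKM in the THY1-labelled library, a ratio of 95.5 and the highest among members above 0 in both. Its values were worth about 30.0 and 2.02 fragments, so the lower one rests on very few. Only 50.5% of the 50-base stretches of Hist1h3a were found in no other gene, so its values are also uncertain. Hist1h3f was at 3.50 FPKM in the KIT-labelled library and listed at 0 in the other. Hist2h3c2-ps, which the table names as a pseudogene and RefSeq lists as H3c15, was listed at 0 and at 0.853 FPKM. The other 8 H3 genes, Hist2h3b among them, were listed at 0 in both libraries.

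Of the 11 H4 genes, 3 were above 0 in the KIT-labelled library alone, 2 in the THY1-labelled library alone, 1 in both and 5 in neither. Hist1h4b was at 149 FPKM, Hist1h4f at 29.2 FPKM and Hist1h4i at 10.1 FPKM in the KIT-labelled library, and all 3 were listed at 0 in the THY1-labelled library. Hist1h4c at 4.22 FPKM and Hist1h4k at 3.92 FPKM were above 0 in the THY1-labelled library alone. Hist4h4 on chromosome 6, the lone Hist4 gene, was the only H4 gene above 0 in both, at 57.4 and 3.04 FPKM, a ratio of 18.9. The H4 genes encode the same protein. Under 50% of the 50-base stretches of Hist1h4b (45.4%) and Hist1h4k (28.5%) were found in no other gene, so the values of these 2 are uncertain. The 5 others, including Hist2h4, were listed at 0 in both.

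The linker histone H1 had the lowest ratio of summed levels of the 5 classes. Hist1h1c was at 24.4 FPKM in the KIT-labelled library and 4.52 FPKM in the THY1-labelled library, a ratio of 5.39. Hist1h1a, a subtype prominent in spermatogonia and early spermatocytes, was at 7.61 and 3.00 FPKM, a ratio of 2.54. Hist1h1d was at 0.985 and 1.74 FPKM, the only member above 0 in both that was larger in the THY1-labelled library, by a ratio of 1.77. Its value in the KIT-labelled library is below that of 1 fragment. Hist1h1b was listed at 0 in both, and the joined row of Hist1h1e and Hist1h2be was at 6.34 and 5.06 FPKM.

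The 4 core classes, which enter the nucleosome in equal numbers, had unequal summed levels in both libraries. In the KIT-labelled library the sums were 573 FPKM for H2A, 246 for H4, 167 for H3 and 115 for H2B, and 32.9 for H1. In the THY1-labelled library they were 65.9 FPKM for H2A, 17.7 for H2B, 11.2 for H4 and 2.57 for H3, and 9.26 for H1. H2A was thus first in both, with 50.3% and 59.1% of the summed histone level. H3 held 14.7% in the KIT-labelled library and 2.30% in the THY1-labelled library, and H1 held 2.89% and 8.29%. The ratio of class sums, KIT-labelled over THY1-labelled library, was 65.1 for H3, 22.0 for H4, 8.69 for H2A, 6.50 for H2B and 3.56 for H1. The H3 ratio rests almost wholly on Hist1h3a, and the H4 ratio includes 3 genes listed at 0 in the THY1-labelled library.

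**Figure D2:**
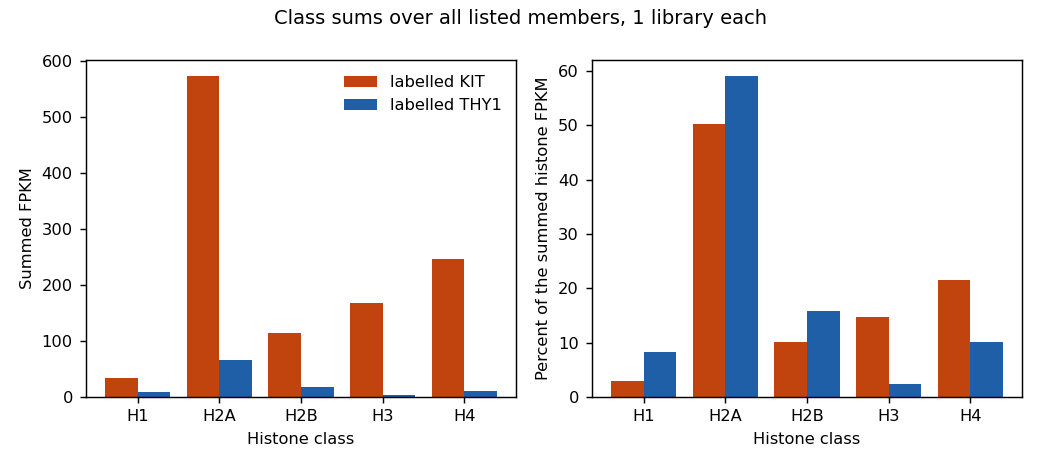
Summed FPKM of each class (left) and its percent of the summed level of all 56 members (right) in the KIT-labelled library and the THY1-labelled library, 1 library each. H2A is the largest class in both, at 50.3% and 59.1%, while H3 and H4 are smaller shares in the THY1-labelled library.

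By position, the Hist1 cluster held 45 of the members and 42.9% of the summed level in the KIT-labelled library, and 36.6% in the THY1-labelled library. Of its members 25 were listed at 0 in both libraries. The 11 members of the Hist2, Hist3 and Hist4 clusters held the rest, and 2 of them (Hist2h3b and Hist2h4) were listed at 0 in both. The Hist2 cluster alone, with 7 members, held 46.8% and 52.6%.

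Members listed at 0 in both libraries had less sequence of their own. For each member, the share of 50-base stretches of its GENCODE transcripts that occur in no other gene's transcripts was taken as its unique share (the read length is not given in the sources used here). Of 22 members with a unique share under 50%, 18 were listed at 0 in both. Of 32 with a unique share of 50% or more, 9 were. The median unique share was 39.6% (lowest 6.08%, highest 100%, n = 27) among members at 0 in both and 68.5% (13.6% to 100%, n = 27) among the others. With stretches of 36 or 75 bases the medians were 34.1% against 60.0% and 43.4% against 77.6%.

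The pattern was clear in H2A with 50-base stretches and had exceptions elsewhere. The 8 H2A genes at 0 in both had unique shares of 9.27% to 47.7%, and the 6 others had 56.8% to 97.7%, so the ranges did not overlap. With 75-base stretches they did, reaching 73.0% in the former and starting at 65.6% in the latter. In H4, in contrast, the 5 genes at 0 in both had 54.2% to 99.0%, and the 6 others had 28.5% to 92.9%. Hist1h1b (100%), Hist2h4 (99.0%), Hist1h4d (89.8%) and Hist1h2bh (82.1%) were listed at 0 in both although most of their sequence is their own. Hist1h2bn, with the lowest unique share of the members above 0 (13.6%), was at 29.2 and 5.93 FPKM. Whether reads with several alignments were dropped is not given in the sources used here, and the part of shared sequence in these zeros was not tested.

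**Figure D3:**
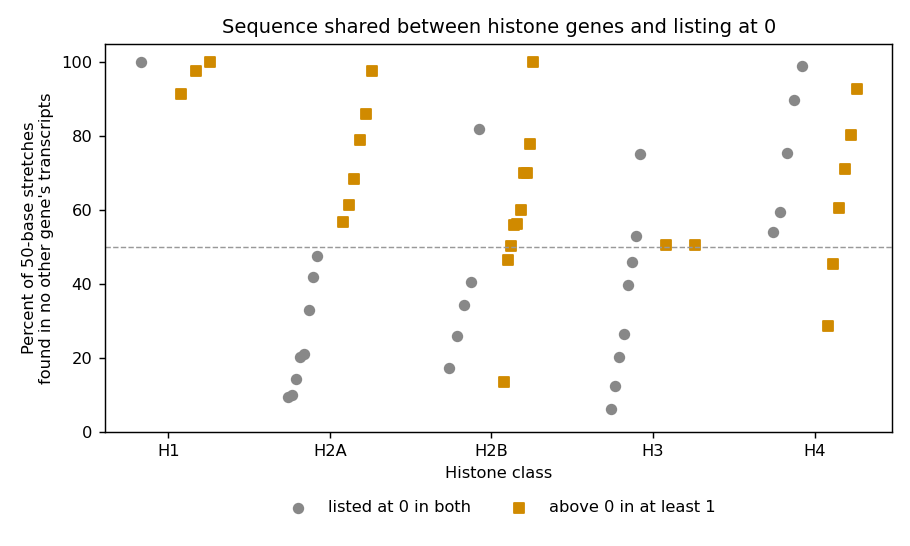
Percent of each member's 50-base stretches found in no other gene's annotated transcripts, by class, for members listed at 0 in both libraries (circles) and above 0 in at least 1 (squares), with a dashed line at 50%. In H2A all circles lie below all squares, while in H4 the circles reach 99.0%.

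Histone values were mostly larger in the KIT-labelled library, and so were those of other intronless genes. Differences were counted on the log2(FPKM + 1) scale, which understates low genes, for usable genes, those reaching 1 FPKM in either library, and 2-fold was the size counted. Of 25 such members, 19 (76.0%) were at least 2-fold higher in the KIT-labelled library, against 39.5% of all 15573 genes. In the THY1-labelled library 4 members (16.0%) were at least 2-fold higher, against 41.1% of all genes. The other single-exon genes of 312 to 7425 bases, the range of the members in GENCODE, were however higher in the KIT-labelled library for 88.4% of 415 and in the THY1-labelled library for 2.89%. Over those up to 1000 bases, closer to the members' median length, the shares were 89.2% and 6.45% of 93. The members' share in the former direction was thus above that of all genes and below that of other intronless genes.

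The sizes showed the same. The members' median difference was 2.23, KIT-labelled minus THY1-labelled, against 2.53 for the other single-exon genes and -0.0026 for all genes. For the other single-exon genes up to 1000 bases it was 2.82. Among the 16 members above 0 in both libraries, the median ratio of FPKM was 9.27, and 15 were larger in the KIT-labelled library. It was 10.00 among 323 other single-exon genes, of which 319 were larger there, and 1.48 among all 12578 genes above 0 in both, of which 6976 were. The part of gene structure and depth in the histone difference was not tested beyond these counts.

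**Figure D4:**
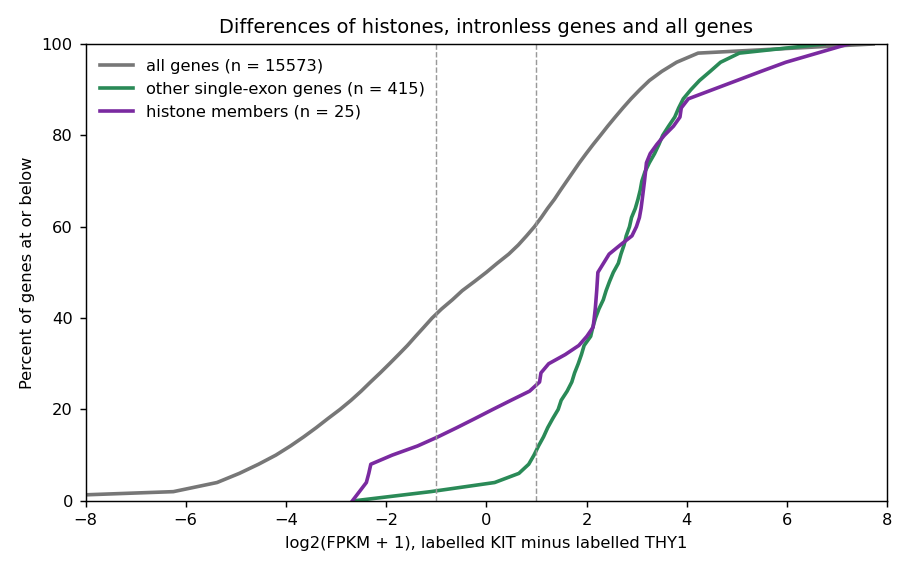
Cumulative percent of genes by difference on the log2(FPKM + 1) scale, KIT-labelled minus THY1-labelled, for all genes, the other single-exon genes and the histone members, with dashed lines at 2-fold. The histone curve (median 2.23) runs near that of the other single-exon genes (median 2.53) and to the right of that of all genes.

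By class, the median difference was 1.11 over 3 usable H1 genes, 3.12 over 5 of H2A, 2.17 over 8 of H2B, 4.05 over 2 of H3 and 3.67 over 6 of H4. Counts of members at least 2-fold higher in the KIT-labelled library were 2 of 3 for H1, 4 of 5 for H2A, 7 of 8 for H2B, 2 of 2 for H3 and 4 of 6 for H4. The shares were 39.5% over all genes and 88.4% over the other single-exon genes, and each class has few genes. The 4 members at least 2-fold higher in the THY1-labelled library were Hist1h2aa, Hist3h2bb-ps, Hist1h4c and Hist1h4k, each listed at 0 in the other library. All 8 members seen in the THY1-labelled library alone (0.203 to 5.38 FPKM) lay below the worth of 1 fragment in the KIT-labelled library at their own length, so their listed 0 there shows no difference beyond counting error. That worth is an estimate and no floor, since Hist1h1d and Hist3h2ba were listed above 0 in the KIT-labelled library at less than 1 fragment. All 5 seen in the KIT-labelled library alone (3.50 to 149 FPKM) lay above the worth of 1 fragment in the THY1-labelled library. The difference in depth sets this in advance for nearly any value of 1 fragment in the KIT-labelled library, so it decides nothing. Hist1h3f, Hist1h4i and Hist1h2ae were worth only about 1.16, 1.49 and 1.63 fragments there, and Hist1h4f and Hist1h4b about 4.09 and 24.5. Only 6 members were worth 10 fragments or more in either library, namely Hist2h2ab, Hist2h2ac, Hist3h2a, Hist2h2be, Hist1h3a and Hist1h4b. All 6 passed in the KIT-labelled library and 3 of them (Hist3h2a, Hist1h3a and Hist1h4b) in that library alone, so the direction of those 3 is partly set by the filter. The other 3 passed in both, with ratios of 9.44 for Hist2h2ab, 9.09 for Hist2h2ac and 10.9 for Hist2h2be.

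The replication-independent variants, most of which are made from polyadenylated messages and not only in S phase, were mixed. Of 11, 6 (54.5%) reached 2-fold towards the KIT-labelled library and 3 (27.3%) towards the THY1-labelled library, against 39.5% and 41.1% of all genes, with a median of 1.49. The linker histone H1fx, a single-exon gene, was at 36.8 and 2.59 FPKM with the KIT-labelled library first. The DNA-damage variant H2afx, also of a single exon, was at 16.9 and 2.92, while H1f0, the third of that structure, was at 4.94 and 4.19. The H2A variant H2afj was at 7.39 and 0.625 FPKM, and the macroH2A gene H2afy2 at 27.6 and 9.20. In the other direction, macroH2A H2afy was at 5.10 and 26.7 FPKM, and the centromeric H3 gene Cenpa was listed at 0 and at 10.4 FPKM. H3f3b, which encodes the replacement variant of H3, was at 14.2 and 3.19 FPKM.

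Genes that control and cut histone messages lay near the shares of all genes. Of 20 usable genes, 6 (30.0%) reached 2-fold towards the KIT-labelled library and 8 (40.0%) towards the THY1-labelled library, against 39.5% and 41.1% of all genes, with a median of -0.66. Slbp, the stem-loop-binding protein, was at 16.4 and 46.8 FPKM with the KIT-labelled library first. The cap-binding Ncbp1 was at 14.4 and 138 FPKM, Cpsf3, the nuclease that makes the cut, at 12.1 and 85.9, Cstf2 at a listed 0 and 36.6, and Hinfp, a regulator of H4 genes, at a listed 0 and 8.23. The scaffold Sympk was close, at 65.8 and 88.2 FPKM. The transcription factor E2f1 was at 46.6 and 1.59 FPKM, the cyclin Ccne2 at 114 and 16.5, and Ccne1 at 41.9 and 11.2, while Npat, the coactivator of histone transcription, was at 13.2 and 26.6. Pou2f1, which binds the octamer of H2B promoters, was at 22.5 and 5.08 FPKM.

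Histone chaperones, which carry histones to DNA, were mostly higher in the THY1-labelled library. Of 18, 15 reached a 2-fold difference in that direction and 2 the opposite way (median -2.35), against 41.1% and 39.5% of all genes. Nasp, which holds H3 and H4 in the nucleus and is abundant in the testis, was at 25.5 and 432 FPKM with the KIT-labelled library first. Nap1l1 was at 0.569 and 64.9 FPKM, the FACT subunit Ssrp1 at 1.51 and 101, and Hat1, which acetylates new H4, at 1.87 and 72.8. The exceptions were Asf1a, at 149 and 16.5 FPKM, and Npm3, at 27.6 and 3.80 FPKM. In the 18 chaperone genes the most exons of an annotated transcript ran from 4 (Asf1b) to 35 (Atrx), while most members have a single exon. The part of gene structure in their direction was not tested.

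Genes of S phase went both ways. Of 24, 13 (54.2%) reached 2-fold towards the THY1-labelled library and 6 (25.0%) towards the KIT-labelled library, against 41.1% and 39.5% of all genes, with a median of -1.17. Top2a was at 1.35 and 116 FPKM, the ribonucleotide reductase subunit Rrm1 at 0.667 and 55.8, the ligase Lig1 at a listed 0 and 28.6, and the helicase subunit Mcm3 at a listed 0 and 19.2, with the KIT-labelled library first. The thymidine kinase Tk1 went the other way at 115 and 19.5 FPKM, as did the sliding clamp Pcna at 19.3 and 3.97. The cyclin Ccna2 was at 96.6 and 47.8 FPKM. Larger values in the KIT-labelled library, as most usable histones had, were thus found in 6 of these 24 genes at this size. This comparison is not matched for gene structure. The most exons of an annotated transcript ran from 3 (Fen1) to 37 (Pola1) in these genes, while most members have a single exon. Among other single-exon genes, 88.4% reached 2-fold towards the KIT-labelled library. The part of gene structure in this contrast was not tested.

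**Figure D5:**
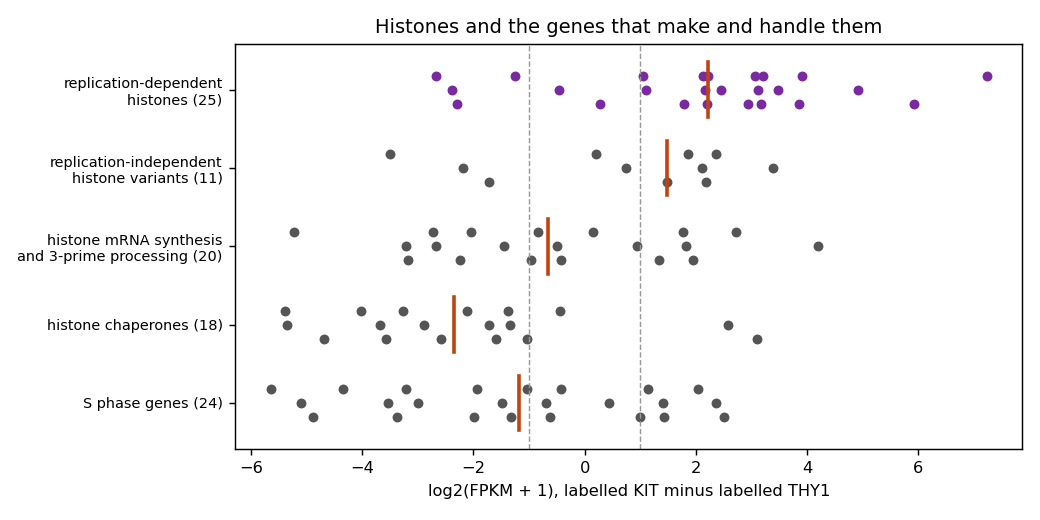
Difference on the log2(FPKM + 1) scale, KIT-labelled minus THY1-labelled, of each usable member of the histones and of 4 other lists (number of genes in brackets), with the median as a bar and dashed lines at 2-fold. The medians are 2.23 for the histones, 1.49 for the variants, -0.66 for synthesis and processing, -2.35 for chaperones and -1.17 for S phase genes.

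The testis histones that were left out had the same direction as most members. Hist1h2ba, the testis H2B, was at 117 FPKM in the KIT-labelled library and 14.0 FPKM in the THY1-labelled library, above every H2B member in both, and Hist1h1t, the linker histone of spermatocytes, was at 23.7 and 10.2 FPKM. Hils1 was at 92.1 and 4.42 FPKM and H1fnt at 47.8 and 20.3 FPKM. These 4 genes have a single exon. Of 6 listed germ cell histone genes outside the members, 4 reached 2-fold towards the KIT-labelled library and 0 the other way. The shares were 39.5% and 41.1% of all genes, and 88.4% and 2.89% of other single-exon genes.

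Markers of several other testis cells differed between the libraries as well. For comparison, 39.5% of all genes reached 2-fold towards the KIT-labelled library and 41.1% towards the THY1-labelled library. Each marker list is short. All 10 spermatocyte markers were at least 2-fold higher in the THY1-labelled library (sum 119 FPKM in the KIT-labelled library and 1324 in the other), and Dmc1, Hormad1, Tex101 and Adam2 were listed at 0 in the KIT-labelled library. Of 10 spermatid markers, 5 were higher in each (sums 4937 and 2500), and of 7 Leydig cell markers 6 were higher in the THY1-labelled library (sums 170 and 12849). Sertoli cell sums were 31.8 and 869, macrophage sums 254 and 960 and T lymphocyte sums 49.5 and 7.26 FPKM. In that order, 4 of 6, 3 of 7 and 4 of 5 usable markers reached 2-fold towards the KIT-labelled library. Towards the THY1-labelled library 2, 2 and 0 did. The macrophage share towards the KIT-labelled library, 42.9%, was near that of all genes. In the THY1-labelled library, Clu (848 FPKM) made up most of the Sertoli sum and Aif1 (880 FPKM) most of the macrophage sum. Spermatogonial markers summed to 272 and 219 FPKM, with 5 of 12 usable genes higher in the KIT-labelled library and 6 in the other. The former were Thy1, Gfra1, Id4, Nanos2 and Nanos3, and the latter Kit, Stra8, Dazl, Sohlh2, Dmrt1 and Uchl1. With the KIT-labelled library first, Nanos2 was at 54.1 and 1.49 FPKM and Stra8 at 0.743 and 34.1 FPKM. Zbtb16 was listed at 0 in both. The part of the cell makeup in the histone values was not tested.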

How the data were processed

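RNA of 2 spermatogonial samples was analysed, 1 library each. The authors deposited 1 value per gene symbol, taken as FPKM because the submitters' processing notes name Cufflinks 2.1.1. The notes also name TopHat 1.4.1, CASAVA and mm9, with no roles, while the sources used here do not give the annotation or the treatment of reads with several alignments. Per the labels' protocols, libraries were directional and depleted of ribosomal RNA.

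Tables were tied to samples by the series record and to groups by title. Differences were log2(FPKM + 1), KIT-labelled minus THY1-labelled, for genes reaching 1 FPKM in either library, and were counted at 2-fold. With 1 library per group no test was made. Exact depth is unknown. The worth of 1 fragment came from FPKM multiplied by length at percentile 5 of genes with a single GENCODE M21 transcript over 1000 bases. Fragment numbers given for members are this estimate at the RefSeq length (the GENCODE length for Hist1h2bp and Hist1h2bc), and carry no interval. RefSeq entries matched 55 members, and GENCODE transcripts 54. Counting was checked on simulated data.

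Members and lists were chosen with earlier results of these data known. Per class, named genes were members reaching 10 FPKM in a library, above 0 in both libraries, or of the Hist2 to Hist4 clusters. Per other list they were up to 4 with the largest difference and the 2 with the highest mean. Others (such as Ppia, Pou2f1, Ccne1, Npat, H1f0, H3f3b, Pcna and members seen in 1 library) were chosen after their values were seen. Alternatives were a pseudocount of 0.1, 2 scalings, no filter or a minimum of 5 FPKM, genes above 0 in both libraries and, added after seeing the data, members without pseudogene or joined symbols or worth at least 10 fragments. Python 3.11.15, numpy 2.4.6, pandas 2.3.3 and matplotlib 3.10.9 were used.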

Additional observations from a re-analysis of the deposited data

How the results depend on the processing

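Scaling to a median ratio of 1 moved the median difference of all genes to -0.57 and scaling to the sum without Rpph1 moved it to 0.22. Under them the members' median was 1.75 and 2.40, and 17 and 19 members were at least 2-fold higher in the KIT-labelled library, against 33.3% and 41.6% of all genes, and 4 in the THY1-labelled library under each, against 46.2% and 39.3%. The share of other single-exon genes, 88.4% towards the KIT-labelled library and above that of the members as deposited, was not computed under these scalings. No setting that was run reversed the sign of the histone median or of a class median. With a pseudocount of 0.1 the median was 3.18 over all members, 5.83 for H3 and 5.44 for H4. With no filter on low values it was 0 over all members and for H2A, H2B, H3 and H4, since members at 0 in both libraries then enter. With a minimum of 5 FPKM it was 3.01 over all members, 5.92 for H3 (Hist1h3a alone) and 4.39 for H4, and 1 member was higher in the THY1-labelled library. Among genes above 0 in both libraries no member (0) was at least 2-fold higher in the THY1-labelled library, and the H3 median was 5.92. Of the 6 members worth at least 10 fragments, 6 were higher in the KIT-labelled library and 0 in the other, with medians of 3.16 over all of them, 2.94 for H2B, 5.92 for H3 and 7.23 for H4, and no H1 gene was left. Of these, Hist3h2a, Hist1h3a and Hist1h4b passed only through the KIT-labelled library where they are high, so these counts and medians are partly set by that filter. No paired analysis was possible because each group has 1 library, and no library could be left out. Depth limits low values most in the KIT-labelled library, where 1 fragment was worth about 5.62 FPKM at the median member length of 487 bases, and less for longer transcripts.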
